A study of Mus musculus with 8 samples.

Results

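Genes that were close to silent in control mouse morulae and expressed in morulae cultured with A485, which blocks the acetyltransferases p300 and CBP, were collected from the deposited expression table. A gene was a member when its mean over the 4 control libraries was under 0.2 TPM (a level scaled for transcript length and for the library's total) and its mean over the 4 A485 libraries was at least 2 TPM. This gave 201 of 18257 genes (1.10%). Another 6 genes that met both limits were left out by name or symbol family. Because the members were selected on the difference between the groups, their difference between the groups is a description and supports nothing. Of all genes, 6461 lay under the control limit and 8398 at or over the A485 limit. Just inside the control limit were Elmod1, Gh and Gm2046, each at a mean of 0.1975 TPM, and just outside it were Ascl2, Gm5458, Grb10 and S100a1, each at 0.20 TPM. Just inside the A485 limit were Hid1 (mean 2 TPM), Rsad2 (2.00) and Rasgef1c (2.02), and just outside it were Ier5 (mean 1.9975 TPM), Fam20c (1.995) and Zfp358 (1.98).

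p300 and CBP acetylate histones at enhancers and promoters and act as coactivators for many transcription factors. The morula precedes the blastocyst, in which the trophectoderm and the inner cell mass separate. Most genes of differentiated tissues are not yet transcribed at that stage, while many multicopy genes that are active during the first cleavages have been switched off.

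Control embryos were wild-type and kept in KSOM medium with 0.1% DMSO, and treated wild-type embryos in KSOM with 2 µM A485, in both cases from the 4-cell stage onward. Both groups were labelled as morulae, although the treatment protocol runs to the blastocyst stage. Each of the 8 libraries pooled 3 embryos, called a biological replicate in the labels, which do not say whether pools came from separate litters or days. No batch is named. Total estimated counts were 23641781 to 25677701 per library. No spike-in is described, and in pooled embryos more cells with a transcript and more transcript per cell cannot be told apart. Of 18 morula and blastocyst markers, the summed level was 12041 to 13259.5 TPM in control and 4239.7 to 7862 TPM in A485 libraries. Dppa3 made up most of that sum in control and in A485 replicates 1 and 2. The other 17 markers summed to 1696 to 1946 TPM in control and to 1495, 2435, 2713 and 3218 TPM in A485 replicates 1 to 4. Krt8 was at 172 to 245 TPM in control and 409 to 1206 in A485, and Krt18 at 329 to 514 and 541 to 1460. Together they made up most of the A485 sum of those 17. Pou5f1, Nanog, Cdx2, Gata3, Tfap2c, Tead4, Gata6, Tdgf1, Zfp42, Klf5 and Dab2 were lower in every A485 library than in any control library. Eomes was higher in every A485 library, Cdh1 and Fgf4 overlapped between the groups, and Sox2 stayed at or under 0.38 TPM. The 10 fibroblast or feeder cell markers summed to 0.67 to 1.48 TPM in every library, and each was under 1 TPM throughout.

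Over the members as a whole, the summed level was 13.0 to 21.1 TPM in control libraries. It was 537 TPM in A485 replicate 1, 1057 in replicate 2, 1793 in replicate 3 and 923 in replicate 4. The members thus remained a small part of the A485 transcriptome, at 0.0537% to 0.179% of all TPM. A level of at least 1 TPM was reached by 138, 195, 196 and 176 members in A485 replicates 1 to 4 and by 0 in any control library. In control libraries the median member had 12 counts over all 4 libraries (range 0 to 127), and 17 members were listed at 0 in all 4. The A485 counts of a member summed to a median of 578 (13.5 to 4782). The TPM values of the groups did not overlap for 181 of the 201 members (90.0%), against 26.5% of all genes with higher values in A485, a count that the selection itself largely fixes. In edgeR's quasi-likelihood fit over 12936 genes, 29.7% of genes were called higher and 25% lower at an adjusted p of 0.05. The 176 members that passed the filter on low counts were all called higher, which the selection fixed, so nothing is read from that count. With total-count scaling the shares over all genes were 38.1% and 17.8%. The other 25 members, among them Krt17, Ly6d, Klk5, Tac1 and Gm2046, did not pass the filter.

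The member with the highest level in A485 embryos was Calml4, a calmodulin-like protein of the intestinal brush border. It was listed at 0.49, 0, 0 and 0 TPM in control replicates 1 to 4 and at 38.3, 61.8, 105 and 85.5 TPM in A485 replicates 1 to 4. Vax2, a homeobox factor of the ventral eye, was at 0, 0.27, 0.27 and 0.04 TPM in control and at 11.7, 24.7, 64.9 and 34.6 TPM in A485. Both genes were far above every control library in all 4 A485 libraries, and both were lowest in A485 replicate 1. Tmem59l, a brain-enriched membrane protein, was at 0.04 to 0.19 TPM in control and at 8.49, 19.8, 33.1 and 33.6 TPM in A485. Batf3, a leucine-zipper factor known from dendritic cells, was at 0 to 0.32 TPM in control and at 5.26, 22.3, 35.8 and 16.9 TPM in A485. Asprv1, a retroviral-like protease of the outer epidermis, was at 0 to 0.06 TPM in control and at 1.29, 24.6, 36.7 and 15.7 TPM in A485. A485 replicate 1 was the lowest treated library for all 3 of these, most plainly for Asprv1.

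Among the other members with the highest means were Tmem140, Klk8, Gng3, Irf1, Tff3, Taf7l and Kcnk1. Gng3, a G protein gamma subunit of neurons, was the most even of them over the treated libraries at 15.1, 15.9, 22.5 and 11.1 TPM (control 0.03 to 0.20 TPM). Tff3, a secreted trefoil peptide of mucous epithelia, was listed at 0 in all 4 control libraries and at 3.59, 20.5, 9.90 and 22.6 TPM in A485. Kcnk1, a two-pore-domain potassium channel, was at 0.04 to 0.17 TPM in control and at 3.23, 17.7, 11.8 and 9.47 TPM in A485. Unlike most members, Kcnk1 was highest in A485 replicate 2 and Tff3 in replicate 4. Tmem140 was at 10.6, 7.92, 45.7 and 9.31 TPM in A485, so that 1 library set most of its mean.

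**Figure D1:**
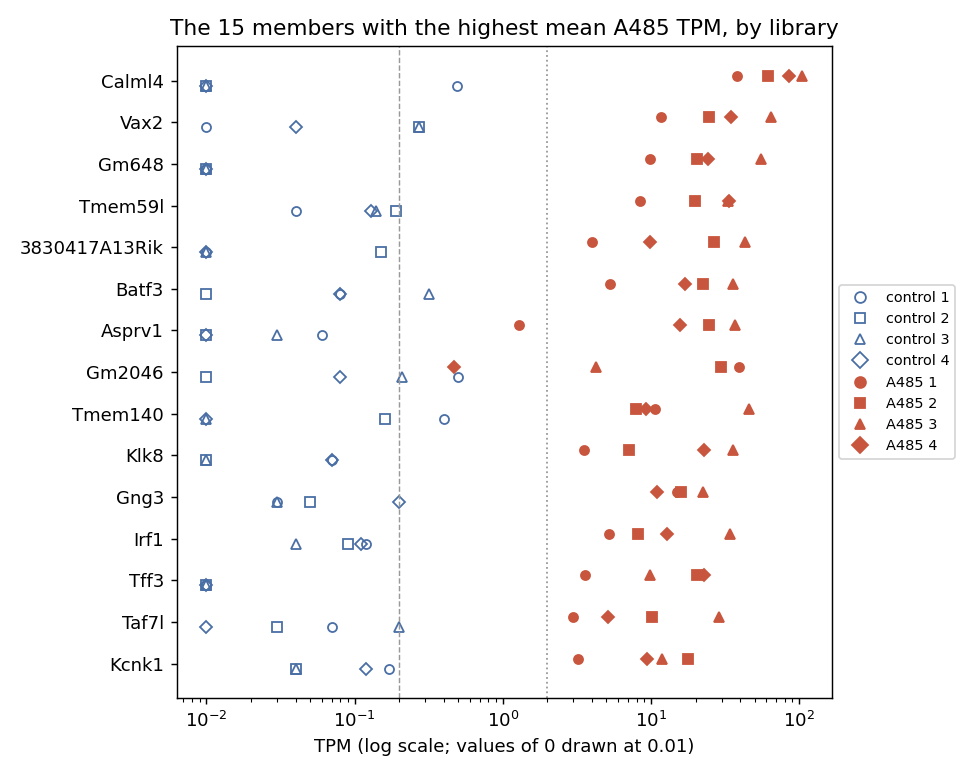
TPM on a log axis of the 15 members with the highest mean A485 level, 1 symbol per library (open, control; filled, A485; the dashed and dotted lines mark the limits of 0.2 and 2 TPM, and values of 0 are drawn at 0.01). Calml4 lies between 38.3 and 105 TPM in the A485 libraries, whereas Gm2046 ranges from 0.47 to 39.5 TPM and is the member here whose groups overlap.

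The promoter of a member is the 250 bases before the transcript start that the RefSeq promoter table uses (build GRCm38.p6). Entries exist for 149 of the 201 members (74.1%), which is too few to describe the whole set, so single promoters are given. The 100 bases before the start of 3 of the leading members are printed 5′ to 3′ on the gene's strand, each with 1 element marked. Capitals mark GGGCGG on the reverse strand in Calml4 (chr9:62858004-62858103, plus strand), the cyclic AMP element TGACGTCA in Tmem59l (chr8:70487349-70487448, minus strand) and the E-box CACGTG in Taf7l (chrX:134476491-134476590, minus strand).
Calml4: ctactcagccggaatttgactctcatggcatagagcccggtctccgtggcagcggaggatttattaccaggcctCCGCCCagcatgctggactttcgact
Tmem59l: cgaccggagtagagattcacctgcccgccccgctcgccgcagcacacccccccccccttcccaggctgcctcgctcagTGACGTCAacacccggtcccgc
Taf7l: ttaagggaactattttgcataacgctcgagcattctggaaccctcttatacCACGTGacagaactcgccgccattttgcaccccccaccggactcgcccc
Searched on both strands in the 250 bases before the start, GGGCGG was present in 50.5%, TGACGTCA in 2.32% and CACGTG in 7.53% of the promoters of 14430 genes of the table. The start used lies 632 bases inside the gene model of Calml4 and 15 bases inside that of Taf7l, and at the end of the model of Tmem59l, whose printed bases also hold GGGCGG on the reverse strand, in lower case. The GC content of the printed bases is 57% in Calml4, 72% in Tmem59l and 54% in Taf7l. A match is a string of letters and not a measured binding site.

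By tissue class the members were diverse. Of the 201 members, 43 (21.4%) belonged to at least 1 of 13 lists, against 5.93% of all genes. The lists cover tissues and also the stress and interferon responses. By gene symbol 38 members belonged to at least 1 of 7 gene families. The remaining 132 were in neither. The list with the largest share was epidermis and squamous epithelium, with 9 of its 77 genes, followed by placenta and trophoblast (5 of 62), interferon response (5 of 79) and neuronal and neuroendocrine genes (8 of 129). Only genes under the control limit, 6461 of 18257, could be members. Below it lay 46 of the 77 epidermal, 31 of the 62 placental, 38 of the 79 interferon and 90 of the 129 neuronal genes. These lists were richer in such genes than the table, so part of the contrast with all genes was fixed by the rule. Steroidogenic and gonadal somatic genes (0 of 35) and genes of connective tissue and extracellular matrix (0 of 94) had no member. The rule left out some steroidogenic and gonadal genes by name, so nothing is read from the 0 of that class. No single tissue accounted for more than 9 of the 201 members.

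**Figure D2:**
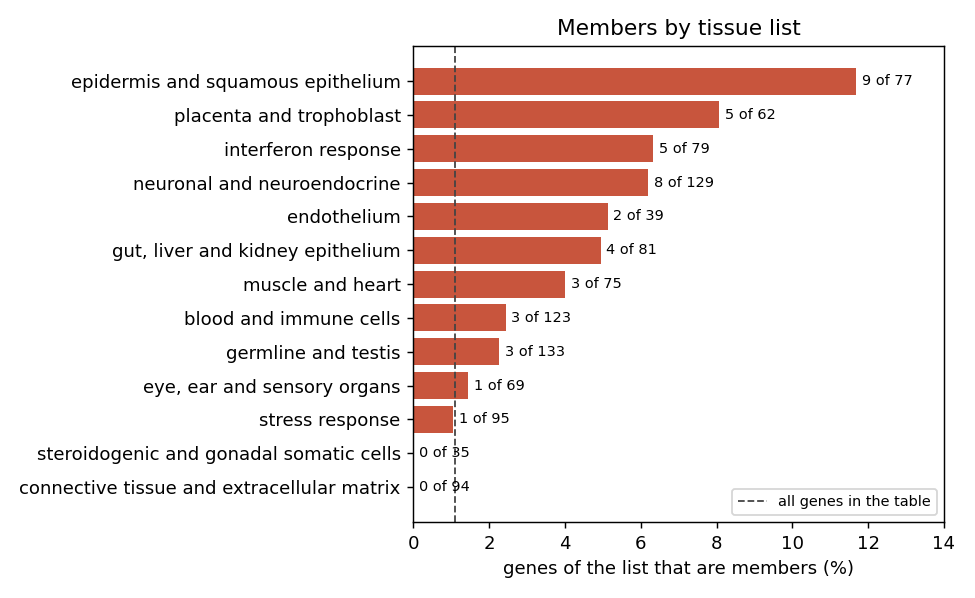
Share of the genes of each of 13 lists (tissues, and the stress and interferon responses) that are members, in percent, with counts beside the bars; the dashed line is the share over all genes of the table. Epidermis and squamous epithelium stands highest at 9 of 77 genes, and 2 lists have no member. Some steroidogenic and gonadal genes were left out by name before counting.

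The epidermal members were Asprv1, Klk8, Crct1, Tgm1, Ppl, Krt17, Sprr1a, Ly6d and Klk5. Tgm1, the transglutaminase that crosslinks the cornified envelope, was at 0.03, 0, 0 and 0 TPM in control and at 1.52, 3.07, 3.58 and 1.55 TPM in A485. Klk8, a kallikrein protease of skin and brain, was at 0 to 0.07 TPM in control and at 3.53, 7.07, 35.8 and 22.9 TPM in A485. Crct1, a gene of the epidermal differentiation complex, was at 1.03, 1.39, 20.8 and 1.27 TPM in A485, so that 84.9% of its level was in replicate 3. Other epidermal members peaked in another library. Krt17, a keratin of stressed and appendage epithelium, was at 0.2, 6.90, 1.99 and 0.31 TPM in A485, and Ly6d, a surface antigen of squamous cells, at 0.25, 6.97, 1.53 and 0 TPM. Of the list's other 68 genes 34 were tested, and 19 of these were higher and 7 lower in edgeR's test. Over all tested genes 29.7% were higher and 25% lower.

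Neuronal and neuroendocrine members were Tmem59l, Gng3, Scg5, Calb1, Peg3, Tac1, Nsg1 and Cplx1. Scg5, a chaperone of the prohormone convertase PC2, was at 0.08 to 0.20 TPM in control and at 3.47, 3.17, 12.2 and 5.10 TPM in A485. Calb1, a cytosolic calcium buffer, was at 0.02 to 0.08 TPM in control and at 0.96, 1.53, 12.2 and 0.76 TPM in A485. Both were highest in A485 replicate 3, and for Calb1 that library held most of the signal. Tac1, the substance P precursor, was listed at 0 in all 4 control libraries and in A485 replicate 1, and at 2.66, 7.28 and 0.41 TPM in the other A485 replicates. Of the list's other 121 genes 63 were tested, with 30 higher and 4 lower, against 29.7% and 25% of all tested genes.

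Interferon response members were Irf1, Psmb8, Isg15, Igtp and Rsad2. Irf1, the transcription factor that activates many of these genes, was at 0.04 to 0.12 TPM in control and at 5.22, 8.19, 34.4 and 12.8 TPM in A485. Isg15, a ubiquitin-like modifier, was at 0, 0.07, 0 and 0 TPM in control and at 2.06, 2.27, 6.03 and 1.18 TPM in A485. Rsad2, the antiviral enzyme viperin, was listed at 0 in control and at 0.15, 1.27, 5.77 and 0.82 TPM in A485. All 5 were highest in A485 replicate 3, and Igtp and Rsad2 had over 70% of their level there (75.1% and 72.0%). Of the list's other 74 genes 42 were tested, with 14 higher and 10 lower, near the shares over all tested genes.

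Placenta and trophoblast members included Taf7l, Slc16a3, Dlx3 and Igf2. Dlx3, a homeobox factor of placenta and skin, was at 0.07 to 0.14 TPM in control and at 2.54, 4.82, 6.99 and 4.98 TPM in A485. Slc16a3, the lactate exporter MCT4, was at 0.06 to 0.21 TPM in control and at 1.69, 11.6, 10.4 and 5.14 TPM in A485. Igf2, an imprinted fetal growth factor, was at 0.02 to 0.22 TPM in control and at 0.37, 1.53, 3.35 and 8.39 TPM in A485, highest in replicate 4. Dlx3 was past both limits in every library, whereas Igf2 was under 2 TPM in A485 replicates 1 and 2. Of the list's other 57 genes 34 were tested, with 17 higher and 8 lower, against 29.7% and 25% of all tested genes. Taf7l, a TFIID subunit variant of germ and trophoblast cells, was at 0 to 0.2 TPM in control and at 3.00, 10.2, 29.0 and 5.11 TPM in A485.

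The smaller classes held few members each. Among their tested genes that were not members, 8 of 31 were higher and 9 lower for gut, liver and kidney epithelium. Those higher and lower were 8 and 6 of 26 for muscle and heart and 25 and 18 of 84 for germline and testis. They were 7 and 7 of 28 for eye, ear and sensory organs. For blood and immune cells they were 19 and 12 of 54, and for endothelium 7 and 2 of 13. Over all tested genes 29.7% were higher and 25% lower. Gut, liver and kidney epithelium had Calml4, Tff3, Muc13 and Rbp4, and Muc13, a transmembrane mucin, was at 0.03, 4.53, 6.96 and 5.75 TPM in A485. Muscle and heart had the troponin genes Tnnc1, Tnnt3 and Tnni1, which differed from most members in their order over libraries. Tnnc1, the calcium-binding troponin of slow and cardiac muscle, was at 14.3, 6.05, 6.18 and 9.24 TPM in A485 replicates 1 to 4, and Tnni1, slow troponin I, at 6.07, 1.87, 1.19 and 1.03 TPM. Both were highest in A485 replicate 1, which was the lowest library for most members. Germline and testis had Taf7l, Ldhc and Prss50, and Ldhc, the sperm lactate dehydrogenase, was at 5.60, 6.70, 15.7 and 8.75 TPM. Eye, ear and sensory organs had Vax2 alone, and the stress response list, of which 57 of 84 tested non-members were called higher, had 1 member, Txnip, an inhibitor of thioredoxin.

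Blood and immune cells had Csf1r, Csf1 and Ccl3, and endothelium had Flt1 and Mmrn2. Csf1r, the macrophage growth factor receptor, was at 0.01 to 0.06 TPM in control and at 1.25, 4.23, 10.9 and 3.79 TPM in A485, and its ligand Csf1 was at 0 to 0.04 TPM in control and at 0.93, 2.71, 4.35 and 6.32 TPM in A485. The receptor peaked in replicate 3 and the ligand in replicate 4. Of the 9 blood and macrophage markers, the leukocyte genes Ptprc and Tyrobp stayed at or under 0.11 TPM in every library. Cd52 was at 8.18 to 13.3 TPM in control and 1.62 to 7.88 in A485, and C1qa at 0.88 to 2.55 and 0 to 0.97. Laptm5 was at 0.16 to 0.29 TPM in control and 0 to 1.28 in A485, and Lyz2 stayed at or under 0.81 TPM. The sum of those 9 markers was 33.1 to 55.6 TPM in control and 352 to 1203 TPM in A485, and Hba-a1 alone gave 343 to 1187 TPM of it in A485, while Hbb-bs stayed at or under 0.17 TPM. Flt1, a VEGF receptor, was at 0.02 to 0.17 TPM in control and at 0.65, 2.87, 10.6 and 1.07 TPM in A485. The 6 endothelial markers summed to 4.33 to 5.44 TPM in control and 3.88 to 14.3 TPM in A485, of which Pecam1 reached 8.51, Esam 6.28 and Tek 1.77 TPM in an A485 library. The defining markers Cdh5, Kdr and Emcn were at or under 0.10 TPM in every library, and Cdh5 and Emcn were listed at 0 in all 4 A485 libraries. The 18 cumulus and granulosa cell markers summed to 42.8 to 77.9 TPM in control and 87.7 to 381 TPM in A485, of which Serpine2 gave 51.9 to 355 TPM. Amhr2 was at 12.6 to 21.1 TPM in control and 15.5 to 32.7 in A485, and Nr5a2 at 11.3 to 15.2 and 4.18 to 11.8. Hsd17b1 reached 7.74 TPM in control, and Gatm and Tnfaip6 reached 2.56 and 1.43 TPM in A485. The other 12 were under 1 TPM in every library, and of these Fshr, Cyp19a1 and Has2 stayed at or under 0.04 TPM. Whether Hba-a1, Serpine2 or these endothelial markers have a part in the levels of members was not tested.

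Gene families were matched on gene symbols, which misses some members, such as Gh, growth hormone, among hormones. By this match 13 members were ion channels or transporters and 9 were cytokines, growth factors or hormones. A further 8 were proteases or protease inhibitors and 4 were developmental transcription factors. These are 1.95%, 4.46%, 3.79% and 1.53% of the families' genes in the table, against 1.10% of all genes. The other families had 0.930% (G protein-coupled receptors or subunits), 0.820% (keratins, cadherins or claudins) and 0.610% (chemosensory receptors). Only genes under the control limit could be members. On that base members were 13 of 344 ion channels or transporters and 4 of 194 developmental transcription factors. They were 9 of 133 cytokines, growth factors or hormones and 8 of 133 proteases or protease inhibitors. Of all genes under that limit 201 of 6461 were members. Developmental transcription factors and these other families fell under that share, and ion channels or transporters were near it. The 4 members matched as developmental transcription factors were Vax2, Dlx3, Gata2 and Foxo4. By the authors' annotation 11 members (5.47%) were transcription factors of any kind, against 8.06% of all genes and 8.67% of genes under the control limit. In the authors' annotation columns 40 members (19.9%) carried an extracellular term, against 10.2% of all genes and 15.5% of the genes under the control limit. Nuclear terms were carried by 22.4% of members, 33.5% of all genes and 21.6% of the genes under the control limit, so members resembled other silent genes in this respect. Members had shorter gene models than other genes, with a median span of 13911 bases against 20892 and a median of 6 exons against 8. For the other genes under the control limit the medians were 23206 bases and 8 exons.

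Members were less evenly expressed over the A485 libraries than other genes. The share of a gene's A485 TPM that came from its highest library would be 25% for an even gene. Its median was 45.4% for members (interquartile range 39.1% to 55.6%, whole range 27.6% to 95.4%) and 31.9% for the 8197 other genes with a mean A485 level of at least 2 TPM. Among genes under 10 TPM the medians were 45.3% for 186 members and 33.4% for 3408 others. Of the members 122 (60.7%) had at least 1 TPM in all 4 A485 libraries, against 97.7% of the other genes, and 62, 14 and 3 members in 3, 2 and 1 of them. The difference in evenness was described and not tested. Members were selected on their mean over these same 4 A485 libraries, so a gene could enter through 1 high library. The rule itself may thus set part of the contrast. A smaller set of 24 members had every control library under 0.2 TPM and every A485 library at 2 TPM or more, among them Tmem59l, Klk8, Irf1, Tff3, Kcnk1, Tnnc1 and Dlx3.

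The most even members with a mean of at least 5 TPM were Ndufa4l2, Ripk3, Aldh3b1, Jazf1 and Gng3, with 29.4% to 34.8% of their level in the highest library. Ripk3, the kinase of necroptosis, was at 7.27, 5.10, 4.98 and 6.33 TPM in A485 and at 0.02 to 0.24 TPM in control. Ndufa4l2, a hypoxia-regulated mitochondrial protein, was at 4.08, 6.23, 5.21 and 5.68 TPM in A485 and at 0 to 0.11 TPM in control. Neither gene had a treated library far from the rest. At the other end were Crct1, Prss23, Aqp8 and Depp1, with 84.9%, 78.2%, 77.3% and 75.1% in 1 library. Aqp8, a water channel, was at 0.35, 1.41, 3.19 and 16.9 TPM in A485, and Prss23, a secreted serine protease, at 1.09, 4.55, 25.3 and 1.42 TPM.

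The unevenness was shared between genes. A485 replicate 3 was the highest library for 136 members (67.7%), replicate 2 for 30, replicate 4 for 27 and replicate 1 for 8. Of the other genes at 2 TPM or more, 42.4% were highest in replicate 3. Replicate 1 was the lowest library for 144 members (71.6%) and for 52.9% of the other genes. On CPM values scaled with TMM factors, which correct for a few abundant genes, 122 members (60.7%) and 23.5% of the other genes were highest in replicate 3. Without that library the rule gave 146 members, of which 143 are among the 201. The rest of the 201 passed the rule only with replicate 3, so the rule may set part of its excess. Over the other 3 A485 libraries, where an even share is 33.3%, the median highest share was 49.6% for members and 40.4% for other genes.

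**Figure D3:**
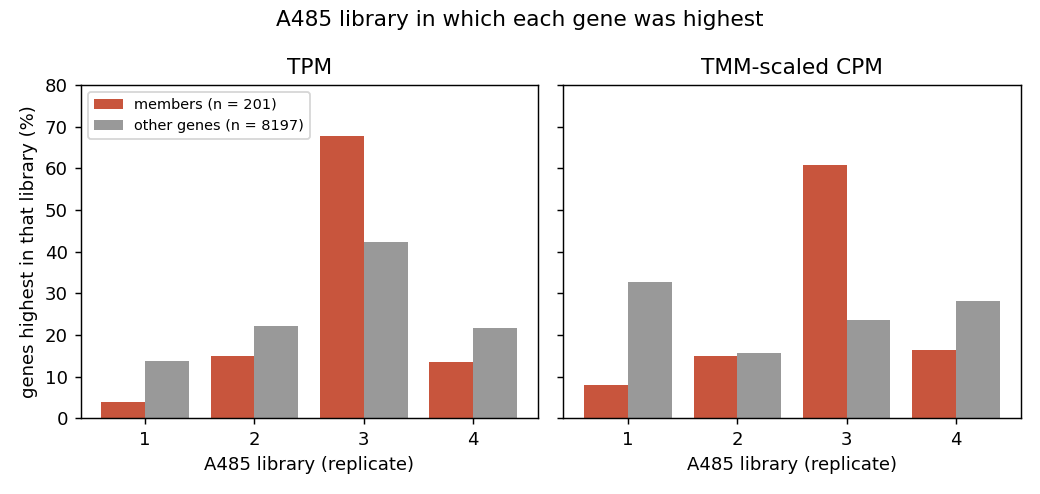
Percent of the 201 members and of the 8197 other genes with a mean A485 level of at least 2 TPM that were highest in each of the 4 A485 libraries, on TPM (left) and on TMM-scaled CPM (right). Replicate 3 holds the maximum for 67.7% of members on TPM and 60.7% on CPM, against 42.4% and 23.5% of other genes.

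A group of 8 members had another order. They are PRAME-like genes (Gm13119, Gm13078, Gm13043, Gm13040 and Gm13057), EIF1A-like genes (Gm2046 and Gm21319) and the ubiquitin-like gene Gm2001, relatives of multicopy genes transcribed in early cleavage. They were grouped by annotation, with Gm13040 and Gm13057 added by symbol, after their values were seen. Their summed level in A485 replicates 1 to 4 was 81.4, 92.5, 13.2 and 4.59 TPM, against 0.35 to 0.88 TPM in control libraries. The other 193 members summed to 456, 964, 1780.1 and 919 TPM. The 8 genes were thus high in the library where the other members were lowest. Replicate 2 was the highest library for 6 of the 8, replicate 1 for 2 and replicate 3 for 0. Gm2046 was at 39.5, 29.9, 4.26 and 0.47 TPM in A485 and at 0.50, 0, 0.21 and 0.08 TPM in control, so its groups overlapped. Gm13119 was at 10.6, 15.1, 1.77 and 1.56 TPM in A485, and Gm13078 was at 0.04, 16.3, 0.67 and 0.07 TPM, with 95.4% of its level in replicate 2.

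**Figure D4:**
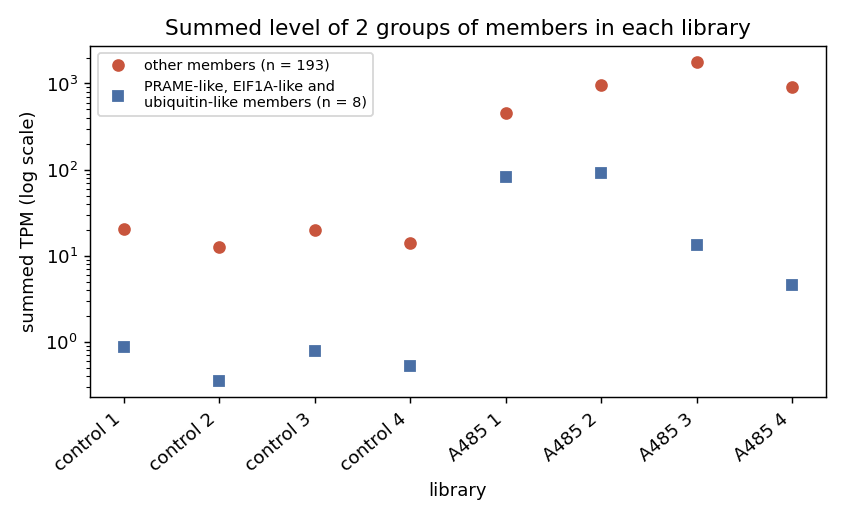
Summed TPM (log axis) per library of the 8 PRAME-like, EIF1A-like and ubiquitin-like members (squares) and of the other 193 members (circles). The squares fall from 92.5 TPM in A485 replicate 2 to 4.59 TPM in replicate 4, whereas the circles are lowest in A485 replicate 1 at 456 TPM and highest in replicate 3 at 1780.1 TPM.

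Of these genes Gm13043, Gm13040 and Gm13057 lie side by side on chromosome 4 and formed the only cluster of 3 members. Gm13040 and Gm13057 had the same values in all 8 libraries (6.86, 6.98, 0 and 0.17 TPM in A485, 0 in control). The estimated counts thus do not separate these copies, and each count is uncertain. Their 250-base RefSeq promoters are 100% identical, while their transcript sequences were not compared. Gm13043 was at 3.02, 6.60, 2.63 and 1.69 TPM, and its promoter is 72.1% identical to that of Gm13040 when aligned. The 100 bases before each start are shown to make the copies visible, 5′ to 3′ on the plus strand, with the TATA box TATAAA in capitals (Gm13043 at chr4:143511243-143511342, Gm13040 at chr4:143535854-143535953 and Gm13057 at chr4:143551600-143551699).
Gm13043: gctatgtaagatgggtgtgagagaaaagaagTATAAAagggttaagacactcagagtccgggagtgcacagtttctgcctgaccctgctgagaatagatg
Gm13040: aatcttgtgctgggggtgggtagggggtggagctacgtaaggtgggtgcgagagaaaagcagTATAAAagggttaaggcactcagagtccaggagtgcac
Gm13057: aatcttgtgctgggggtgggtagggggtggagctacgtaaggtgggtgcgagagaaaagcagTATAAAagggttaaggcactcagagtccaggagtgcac
TATAAA, searched on both strands, was present in 8.68% of the 250-base promoters of 14430 genes.

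Most members stood alone in the genome. Distances were taken between the lower coordinates of RefSeq gene models (GRCm38.p6). Of 199 members on assembled chromosomes, 25 (12.6%) lay within 100 kb of another member, against 4.25% of the 17919 other genes. Only genes under the control limit could be members, and the spacing of such genes as a whole was not measured. The contrast can therefore not be called particular to members. The 25 formed 12 clusters, the trio above and 11 pairs. Without the 8 PRAME-like, EIF1A-like and ubiquitin-like members, 20 members were in clusters. The median distance to the nearest member was 1736311 bases for members and 3134902 bases for other genes. Members were found on every chromosome except Y, with 19 each on chromosomes 7 and 11 and 12 on X (6.03% of members, 4.11% of genes).

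**Figure D5:**
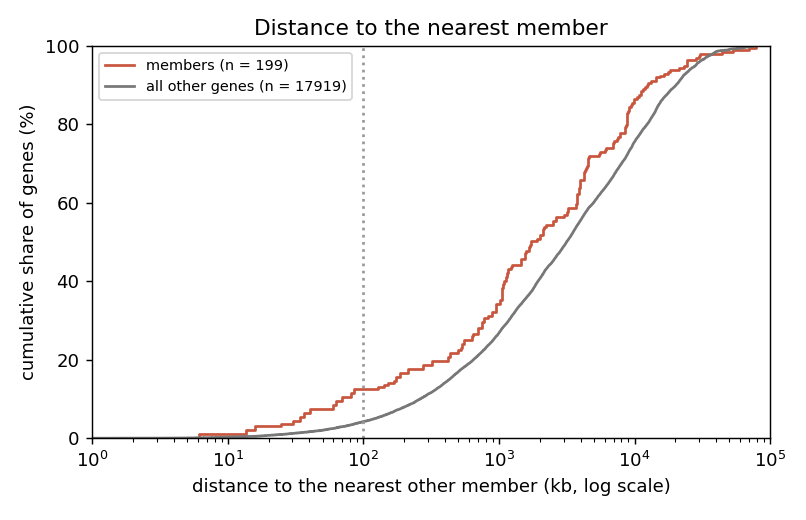
Cumulative share of genes by the distance between the lower coordinate of their gene model and that of the nearest other member (kb, log axis), for the 199 placed members and the 17919 other genes; the dotted line marks 100 kb. At that distance 12.6% of members and 4.25% of other genes have a member nearby.

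Of the pairs, 1 besides the copies already named joined relatives. Klk8 and Klk5 are tissue kallikreins 36625 bases apart on chromosome 7, and Klk5, which activates other kallikreins in skin, was at 0, 0.93, 7.22 and 0.16 TPM in A485. Both were highest in A485 replicate 3. Gm21319 and Gm2001 on chromosome 12 are 69540 bases apart, and both belong to the 8 genes above. The other pairs described here joined genes of different families. Tgm1 and Ripk3 lie 84986 bases apart on chromosome 14, Lsp1 and Tnnt3 40548 bases on chromosome 7, Tmprss13 and Fxyd2 80721 bases on chromosome 9, Birc7 and Nkain4 6157 bases on chromosome 2, and Idua and Fgfrl1 33898 bases on chromosome 5. Spata45 and Batf3 lie 62505 bases apart and Cfap126 and Pcp4l1 59352 bases apart, both on chromosome 1. Aldh5a1 and Gpld1 (chromosome 13) are adjacent genes transcribed away from each other, with their 5′ ends 124 bases apart.

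The paired genes did not all follow the same order over the libraries. Lsp1, a leukocyte actin-binding protein, was highest in A485 replicate 3 (1.98, 2.25, 8.01 and 5.26 TPM) and Tnnt3, fast troponin T, in replicate 4 (4.76, 1.09, 6.34 and 15.2 TPM). Aldh5a1, which degrades GABA, was at 4.40, 9.18, 13.6 and 10.8 TPM, and Gpld1, a phospholipase that releases GPI-anchored proteins, at 0.47, 2.61, 10.5 and 2.90 TPM. Aldh5a1 and Gpld1 shared their order of libraries. No source used here says whether counting used the strand, so reads of overlapping neighbours may be shared.

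Genes next to members were not chosen by their level, and their difference between the groups could be tested. The nearest gene on either side that was no member gave 381 genes, of which 262 passed the filter. In edgeR's quasi-likelihood test 118 of them (45.0%) were higher and 42 (16.0%) lower in A485, against 29.7% and 25% of all tested genes. Some of these neighbours are themselves near silent in control, so the count was repeated on those with a mean control level of at least 0.2 TPM. Of 231 such neighbours 41.1% were higher and 17.7% lower, against 26.6% and 26.4% of 5464 genes of the same control level next to a silent gene that was no member. By distance from the nearest member, 34 of 74 neighbours within 20 kb were higher (45.9%), 69 of 142 from over 20 to 100 kb (48.6%) and 15 of 46 farther away (32.6%). The shares were compared as descriptions, without a test of the set.

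Leaving aside predicted genes, of which Gm4340 next to Gm20765 had a log2 fold change of 6.48 (edgeR adjusted p = 0.0123), the well-covered neighbours with the largest rises were Atf3, Sncg, BC080695, Klk6, BB287469 and Afp. Atf3, a stress-induced bZIP factor 71882 bases from Batf3, was at 0.56, 0.28, 0.28 and 0.02 TPM in control and at 20.1, 43.6, 84.5 and 18.9 TPM in A485 (log2 fold change 6.78 ± 0.72, SE; edgeR adjusted p = 9.42e-05). Sncg, gamma-synuclein, 5230 bases from Mmrn2, was at 0.23 to 4.29 TPM in control and at 112, 172, 274 and 188 TPM in A485 (log2 fold change 6.61 ± 0.83, SE; edgeR adjusted p = 0.000275). Both were higher in all 4 A485 libraries than in any control library, and both peaked in A485 replicate 3. Klk6, a kallikrein 9719 bases from Klk5, was at 0.13 to 1.08 TPM in control and at 2.13, 30.1, 44.2 and 20.1 TPM in A485 (log2 fold change 5.60 ± 0.94, SE; edgeR adjusted p = 0.0011). Afp, the fetal serum protein alpha-fetoprotein, 112362 bases from Rassf6, was at 0.02 to 0.59 TPM in control and at 2.03, 13.2, 19.6 and 11.1 TPM in A485 (log2 fold change 5.37 ± 0.84, SE; edgeR adjusted p = 0.000625). Klk6 and Afp had mean control levels of 0.415 and 0.212 TPM, above the limit of 0.2 TPM for members.

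Of the 7 tested neighbours nearest to the 8 PRAME-like, EIF1A-like and ubiquitin-like members, 3 were called higher (BC080695, BB287469 and Gm21936), 0 lower and 4 did not pass. Of those 4, Gm2016 and Gm16381 had log2 fold changes of 2.90 and 1.95, and Gm13128 and Pramef20 of -0.92 and -1.66 (edgeR adjusted p of 0.138, 0.165, 0.138 and 0.215). BC080695, 15767 bases from Gm13057, was at 32.2, 46.6, 4.16 and 5.09 TPM in A485 (log2 fold change 6.12 ± 1.26, SE; edgeR adjusted p = 0.00366), and BB287469, 25388 bases from Gm2001, was at 91.3, 99.8, 10.9 and 1.07 TPM (log2 fold change 5.40 ± 1.54, SE; edgeR adjusted p = 0.0188). In control they were at 0 to 0.63 and 0.19 to 2.79 TPM, so BB287469 overlapped between the groups through A485 replicate 4. BC080695 and BB287469 were highest in A485 replicates 1 and 2, the libraries in which the 8 PRAME-like, EIF1A-like and ubiquitin-like members were high.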

How the data were processed

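Per the file headers, the table that the authors deposited gives 3 values per library for each of 18257 protein-coding (mRNA) genes: TPM, FPKM and an estimated count, which is not whole in 18.2% of cells. GRCm38.p6 is the build in the submitters' processing notes, where RSEM 1.2.28, HISAT2 2.2.1 and DESeq2 1.40.2 are listed as tools. TPM is relative, so a fall of abundant genes raises all others, and low TPM rest on few counts. Members were selected on the deposited TPM with the rule given in the report. The members, the gene lists and the comparisons were chosen with earlier results of these data known, and the grouping of PRAME-like, EIF1A-like and ubiquitin-like members after seeing values.

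The test of rounded estimated counts was that of edgeR 4.0.16 under R 4.3.3 (TMM, filterByExpr, robust quasi-likelihood fit, group only; Benjamini-Hochberg over all 12936 tested genes; threshold 0.05). Its p-values measure the spread between these pools. A standard error is the fitted log2 difference over the root of its F value. Simulated data were used to test the code. Counts of every pair of replicates differed by more than sampling noise. Positions and promoters came from RefSeq tables of GRCm38.p6, where all members were found, 2 of them outside assembled chromosomes. Tables were joined in Python 3.11.15 with pandas 2.3.3.

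Named members are the 15 of highest mean A485 TPM, up to 4 of highest mean in each list or family, members of clusters within 100 kb, the 5 most and 5 least even with a mean of at least 5 TPM, and those nearest each limit. Predicted and Riken genes were counted and not named unless in a cluster, and 1 pair of clustered members is not reported here. Other members are named where all of a list, or the group of 8, is given or a count of them is illustrated, after their values were seen. Named neighbours are the 6 largest rises with an average log2 CPM of at least 3, predicted and Riken genes aside. Gm4340, Gm20765 and the other neighbours of the group of 8 were added after their values were seen. Alternatives were DESeq2 1.42.0, RLE and total-count scaling, no filter, 5 CPM in 4 libraries, a replicate block, leaving out each library, and other limits, units and windows.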

Additional observations from a re-analysis of the deposited data

Results flagged for a closer look

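Among named members with at least 10 counts in a library, 99 groups of 4 libraries were examined for a library far from the other 3, measured as the gap to its neighbour divided by the range. In 14 of them it was beyond Dixon's 95% critical value, where chance gives about 1 in 20 for groups not chosen by their values. That rate is no yardstick here, since the members were chosen on these values and Crct1, Prss23 and Depp1 were named as the least even. In the A485 group the ratio was 0.932 for Calb1, 0.982 for Crct1, 0.874 for Depp1, 0.90 for Igtp, 0.871 for Klk5, 0.872 for Mmrn2, 0.857 for Prss23, 0.87 for Prss50 and 0.928 for Tmem140, all with A485 replicate 3 as the high library. It was 0.833 for Tnni1, where A485 replicate 1 was high, and 0.927 for Fgfrl1, where A485 replicate 1 was low. In the control group it was 0.952 for Igtp, 0.92 for Serpinb9 and 0.833 for Tmprss13, where control replicate 1 was high. The highest control count behind these 3 was at a level of 0.42, 0.25 and 0.18 TPM. The cause was not tested.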

How the results depend on the processing

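The number of members depends on the limits: 116 with control under 0.1 TPM, 445 with control under 0.5, 425 with A485 of at least 1, 57 with A485 of at least 5, and 24 when every library had to pass, against 201. With FPKM it was 189 (185 shared), with medians 198 (158 shared), and leaving out 1 library gave 146 to 233, the lowest without A485 replicate 3. The evenness share moved between 43.4% and 45.4% over CPM, FPKM and the set without the 8 multicopy relatives. Members with another nearby numbered 15 at 50 kb, 45 at 500 kb and 11 in adjacent positions, against 25 at 100 kb. Under a filter of 5 CPM only 33 members were tested and all 33 were called; other settings called 174 to 195, and 176 to 192 without 1 library. For neighbours, that filter left 155 tested, 70 higher and 27 lower; with total counts 134 were higher and 27 lower; and every gene within 100 kb gave 226 higher and 123 lower of 568. Leaving out 1 library gave 105 to 127 higher and 34 to 47 lower. Over all tested genes the median log2 difference was 0.09, and 0.37 under total-count scaling. With a replicate block 174 members were called, and 106 neighbours were higher and 42 lower. Same-numbered libraries correlated at 0.0054 to 0.103 in their deviations and 2 of 4 control libraries correlated best with their own number, so the numbers were not taken as pairs. The whole-promoter window was not run, since fewer than 80% of members have an entry. Depth limits the members most in control libraries, where 0 to 127 counts lie behind each.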
